A study of Mus musculus with 5 samples.

Results

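The genes described here encode 10 surface proteins by which myeloid and progenitor cells of the mouse are recognised in flow cytometry: *Itgam*, *Ly6g*, *Ly6c1*, *Ly6c2*, *Ly6a*, *Cd34*, *Adgre1*, *Fcgr3*, *Fcgr2b* and *Cd14*. They were taken by symbol from the GENCODE annotation of GRCm38 and are 10 of 21755 protein-coding genes on the autosomes and the X chromosome. CpG methylation was read from whole-genome bisulfite sequencing (WGBS) of bone marrow blasts that were sorted from mice with acute myeloid leukemia (AML) driven by mutant *Cebpa*. The question was whether the marker genes differ in methylation between leukemias with and without *Tet2*, which bears on the kinds of cells the libraries hold.

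All leukemias were *Cebpa*-/p30, that is, they had lost 1 allele of the transcription factor gene *Cebpa* and kept 1 that makes only its short isoform p30. The *Tet2*+/+ group held 2 libraries (numbers 23 and 24) and the *Tet2*-/- group 3 libraries (numbers 5, 7 and 8). TET2 oxidises methylated cytosine, a step toward its removal. The floxed alleles were recombined by *Mx1-Cre*, which is induced by interferon and is active in many cell types, after bone marrow of C57BL/6J donors had been transplanted into irradiated female recipients of the congenic strain C57BL/6J.SJL, and leukemic mice were sampled when moribund. The sorted cells were live, of donor origin (CD45.2+), and negative for CD3, B220 and Ter119, so that T cells, B cells and erythroid cells were gated out, while no myeloid marker entered the gate. The labels give no age and do not say whether libraries of a group came from separate donors, so p-values measure the spread between these libraries, which may be technical in part. A library is a mixture of cells, and a different mixture cannot be told apart from a change of methylation within the same cells.

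ITGAM (CD11b, Mac1) is the alpha chain of the integrin complement receptor of neutrophils, monocytes and macrophages. LY6G and LY6C, which the Gr1 antibody binds together, mark neutrophils and, for LY6C, also monocytes, whereas LY6A (Sca-1) and CD34 mark stem and early progenitor cells. FCGR3 and FCGR2B (CD16/32) are an activating and an inhibitory receptor for IgG, and their joint stain divides myeloid progenitors. ADGRE1 (F4/80) is a macrophage receptor, and CD14 is the coreceptor of monocytes for bacterial lipopolysaccharide. Promoters of genes in use are usually free of CpG methylation, while gene bodies and the DNA between genes are mostly methylated.

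The libraries held 63111735 to 110752967 calls of CpG methylation, or 2.96 to 5.19 calls per CpG dyad (both strands of a CpG counted as a unit). The methylation level, the share of calls that are methylated, came to 67.3% (library 23) and 62.3% (library 24) over the genome in *Tet2*+/+, and to 70.9% (5), 74.8% (7) and 68.4% (8) in *Tet2*-/-. Library 24 thus had the lowest level of all and library 7 the highest, and the level of the whole library is part of each value below. In the first 1500 bp of the last exon of *Tet2* (chr3:133466691-133468190, 29 dyads), libraries 23 and 24 had 95 and 121 calls and the *Tet2*-/- libraries 0 each, as their labels state. Chromosome 15, which carries the 4 Ly6 genes, had 1.25 and 1.07 times the calls per dyad of all autosomes in *Tet2*+/+ and 1.39 to 1.43 times in *Tet2*-/-.

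Across the marker genes, higher methylation in *Tet2*-/- was the usual direction, as it was over all genes. In promoters (from 1000 bp before to 1000 bp after the 5′ end), the difference of group means, *Tet2*-/- minus *Tet2*+/+, was positive in 9 of the 10 genes with a median of 3.83 percentage points, beside 2.22 points over 19455 promoters. In gene bodies it was positive in 8 genes with a median of 4.63 points, beside 4.95 points over 20715 bodies. In the 10 kb upstream and the 10 kb downstream it was positive in 9 genes each, with medians of 3.39 and 4.40 points beside 5.65 and 6.44 points over all genes. Without library 7 the upstream median fell to 0.822 points (4.22 points over all genes) and the body median to 2.41 points (3.66 points). All 10 genes passed the minimum of 20 calls in every library in each kind of region.

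The test was the quasi-likelihood test of edgeR, fitted to methylated and unmethylated calls of all genes, with a Benjamini-Hochberg adjusted p of 0.05 as the threshold. No promoter of the 10 passed it, while 1.07% of all promoters did. Of the 10 promoters, 2 had an unadjusted p under 0.05 (18.1% of all promoters). The bodies of *Fcgr3* and *Fcgr2b* passed, 2 of 10, where 15.5% of all bodies did. Of the 10 bodies, 4 had an unadjusted p under 0.05 (29.2% of all bodies). No upstream and no downstream flank passed, where 13.1% and 16.4% of all flanks did. An unadjusted p under 0.05 was found in 2 of each, where 28.6% and 33.0% of all flanks had it. With limma in place of edgeR no region of the 10 genes passed, but limma called few regions of any gene (77 promoters, 117 bodies and 0 flanks of all those tested), and with library medians subtracted it called 9 promoters, 1 body and 2 upstream and 26 downstream flanks, so that these counts say nothing particular about the 10 genes.

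Counted by the libraries alone, all 3 *Tet2*-/- libraries lay above both *Tet2*+/+ libraries in 3 of 10 promoters (32.8% of all promoters), 5 of 10 bodies (46.0% of all), 3 of 10 upstream flanks (44.7% of all) and 4 of 10 downstream flanks (52.7% of all). These shares are near or below those of all genes. In none of the 40 regions did all *Tet2*-/- libraries lie below both *Tet2*+/+ libraries. The share of such regions over all genes was not counted, so this says nothing particular about the 10 genes.

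**Figure D1:**
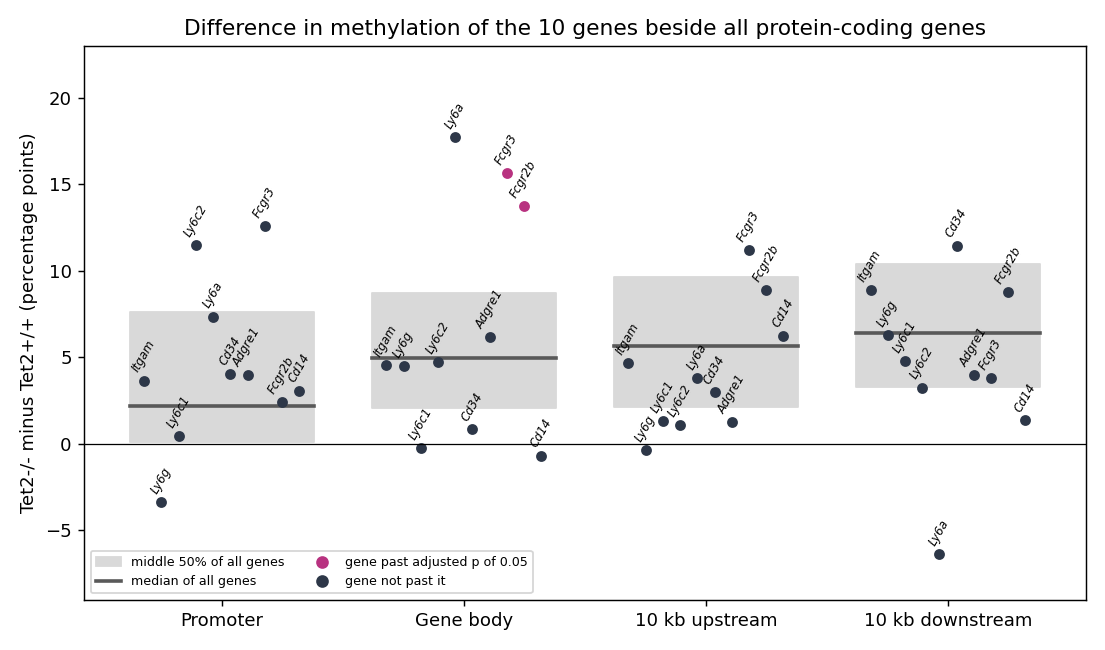
Difference of group means in percentage points (y axis) for the 10 genes in promoters, gene bodies and 10 kb flanks, with the median and the middle 50% of all protein-coding genes as a line and a grey band. The bodies of Fcgr3 and Fcgr2b, in pink, lie above the band and are the points past an adjusted p of 0.05.

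The Fc receptor genes lie near each other on chromosome 1 (GRCm38), *Fcgr3* at chr1:171051174-171064935 and *Fcgr2b* at chr1:170958617-170976547, both on the minus strand. Over the body of *Fcgr3* (256 dyads, 987 to 1692 calls a library), 35.4% (library 23) and 26.6% (24) of calls were methylated in *Tet2*+/+ and 45.8% (5), 46.9% (7) and 47.2% (8) in *Tet2*-/-, the order of libraries used throughout. The groups did not overlap, and the *Tet2*-/- libraries lay within 2 points of each other. The *Tet2*+/+ mean was 31.0% ± 6.25 (SD, n = 2). The *Tet2*-/- mean of 46.6% ± 0.746 (SD, n = 3) lay 15.6 points above it (edgeR adjusted p = 0.00244).

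Over the body of *Fcgr2b* (171 dyads, 705 to 1070 calls), levels were 58.9% and 51.3% in *Tet2*+/+ and 64.3%, 74.0% and 68.2% in *Tet2*-/-. Here too the groups were apart. The gain was 13.8 points between means of 55.1% ± 5.37 and 68.8% ± 4.86 (edgeR adjusted p = 0.02005). Without library 24, the lower of the *Tet2*+/+ libraries, the gains were 11.2 points in *Fcgr3* and 9.96 points in *Fcgr2b* with adjusted p of 0.361 and 0.533. That fit has 1 *Tet2*+/+ library, which is assumed to vary like the *Tet2*-/- libraries, and it called 88 of all bodies in place of 3221, so the loss is not particular to these genes. Without library 23 they were 20.05 and 17.6 points, with 0.00524 and 0.0342. The call of *Fcgr2b* was also lost without library 7 (11.2 points, adjusted p = 0.0822), and that of *Fcgr3* when its first 1000 bp were left out (15.6 points, adjusted p = 0.0786).

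In the 300 bp promoter sequences that RefSeq's table lists for the receptor genes, no methylated call was seen in either group. These promoters (250 bases before to 50 after the start, GRCm38.p6) lie inside the bodies as measured. They are shown because their level differs from that of the whole bodies, and those of *Ly6c2* and *Ly6c1* because they hold almost no CpG to measure. Of the 7 genes found in that table, these 4 had the largest (*Fcgr3* and *Ly6c2*) and the smallest (*Fcgr2b* and *Ly6c1*) absolute differences in the 2000 bp around the GENCODE 5′ end, which for *Fcgr3* is not the start shown. They are given 5′ to 3′ on the minus strand, with every CpG in capitals, at chr1:171059354-171059653 (*Fcgr3*), chr1:170976022-170976321 (*Fcgr2b*), chr15:75111922-75112221 (*Ly6c2*) and chr15:75048788-75049087 (*Ly6c1*).
Fcgr3: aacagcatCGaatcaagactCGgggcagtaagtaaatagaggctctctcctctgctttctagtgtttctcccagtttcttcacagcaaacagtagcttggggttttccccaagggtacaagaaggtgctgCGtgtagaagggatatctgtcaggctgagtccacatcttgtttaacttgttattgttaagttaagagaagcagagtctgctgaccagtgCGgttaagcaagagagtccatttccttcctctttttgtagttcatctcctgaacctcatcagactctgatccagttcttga
Fcgr2b: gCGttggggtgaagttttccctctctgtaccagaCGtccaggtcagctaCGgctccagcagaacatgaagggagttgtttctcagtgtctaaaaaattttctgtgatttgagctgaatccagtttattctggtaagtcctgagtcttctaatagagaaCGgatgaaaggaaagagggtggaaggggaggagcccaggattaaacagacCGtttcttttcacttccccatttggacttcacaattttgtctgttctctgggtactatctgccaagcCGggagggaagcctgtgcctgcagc
Ly6c2: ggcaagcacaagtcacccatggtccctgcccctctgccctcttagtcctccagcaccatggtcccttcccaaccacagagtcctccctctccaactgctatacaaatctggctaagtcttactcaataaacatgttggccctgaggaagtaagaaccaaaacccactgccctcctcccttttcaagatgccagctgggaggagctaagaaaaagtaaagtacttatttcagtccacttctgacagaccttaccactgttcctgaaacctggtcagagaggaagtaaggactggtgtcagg
Ly6c1: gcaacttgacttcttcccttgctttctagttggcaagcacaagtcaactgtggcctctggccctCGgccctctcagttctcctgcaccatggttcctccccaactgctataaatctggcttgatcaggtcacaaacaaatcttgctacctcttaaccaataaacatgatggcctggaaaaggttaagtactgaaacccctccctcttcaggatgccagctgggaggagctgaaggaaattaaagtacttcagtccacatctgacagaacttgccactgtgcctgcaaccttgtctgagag

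In the *Fcgr3* sequence none of 45 calls at its 4 CpGs was methylated in *Tet2*+/+ and none of 78 in *Tet2*-/-, which allows levels of up to 6.67% and 3.85%. In the *Fcgr2b* sequence, with 6 CpGs, none of 61 and none of 117 calls was methylated, which allows up to 4.92% and 2.56%. These limits, 3 counts of the total, and the intervals below cover counting error only. The *Cd34* promoter, with 7 CpGs, was alike at 0 of 63 calls (up to 4.76%) and 2 of 154 (1.30%). In *Ly6g* the reverse held, and its single CpG was methylated in 7 of 7 and 16 of 16 calls.

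The other promoters of this length gave less to read. Of the 6 CpGs of *Itgam*, the 5 nearest to the start had no methylated call, and the farthest, at -231 bp from it, had 3 of 6 and 6 of 12. The *Ly6c2* sequence holds no CpG and the *Ly6c1* sequence holds 1 without a call, while the median over 32851 RefSeq promoters was 7 and 94.6% held a CpG. In a search of both strands for letters bound by myeloid factors, the CEBP motif TTGCNNAA was found once in *Fcgr3* and once in *Ly6g* (10.8% of all promoters hold it). The PU.1 motif GAGGAAGT was found 2 times in *Ly6c2* and once in *Ly6g* (3.20% of all), and the GATA motif AGATAA in none of the 7 (11.2% of all).

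The 5′ end that GENCODE gives *Fcgr3* lies 5532 bp before the start of its principal transcript, in a cluster of tRNA genes (n-TEctc5, n-TGtcc1 and n-TDgtc3 lie in the promoter region). The RefSeq gene record (chr1:171051169-171065915) also reaches past that end. The body as measured begins at that end, so it holds the promoter sequence shown and the 5532 bp before the principal start. Of the 256 dyads of the body, 51 had no call in any library. Around that end, 127 of 206 dyads had no call in any library, and tRNA genes for the same amino acids are annotated again in the upstream flank. Levels there were 17.1% and 8.79% in *Tet2*+/+ and 28.4%, 24.9% and 23.3% in *Tet2*-/-. The groups did not overlap, but the difference of 12.6 points did not pass (unadjusted p = 0.00724, adjusted p = 0.131). With 2000 bp on each side it did, at 17.1 points (edgeR adjusted p = 0.0334).

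At the principal start of *Fcgr3* the picture was flat. Levels were 13.04% and 10.5% in *Tet2*+/+ and 9.52%, 9.77% and 10.4% in *Tet2*-/- over 20 dyads, a difference of -1.87 points (adjusted p = 0.821), with all *Tet2*-/- libraries just below. The promoter of *Fcgr2b* had 6.56% and 6.19% against 7.73%, 12.7% and 5.93%, and the groups overlapped (2.43 points, adjusted p = 0.699).

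Windows of 1 kb were counted from the 5′ end in the direction of transcription and described without a test. Largest gains and losses are those among windows with at least 10 calls in every library and no overlap of the groups. In the window 2 to 3 kb into *Fcgr2b* (chr1:170973548-170974547, in an intron that *Gm38204* overlaps, 10 dyads), levels were 16.7% and 12.7% in *Tet2*+/+ and 30.9%, 55.8% and 73.3% in *Tet2*-/-. That is its largest gain, 38.7 points, with all *Tet2*-/- libraries higher and a wide spread among them. The largest gain at *Fcgr3* lay 2 to 3 kb before its 5′ end, outside any annotated gene, at 0% of 10 calls in each *Tet2*+/+ library (which allows up to 30%) and 41.7%, 63.6% and 20% of 10 to 24 calls in *Tet2*-/-. Its largest loss, in the window 4 to 5 kb into the gene, was -4.87 points, and that of *Fcgr2b*, just past its end, -14.7 points.

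Of the 20 flanks, the one upstream of *Fcgr3* came closest to the threshold. These 10 kb had 32.6% and 22.2% in *Tet2*+/+ and 38.6%, 37.8% and 39.5% in *Tet2*-/-, a gain of 11.2 points with no overlap (edgeR adjusted p = 0.0512). Of its 510 dyads, 362 had no call. Without library 24 the gain was 6.03 points (adjusted p = 0.723, in a fit that called 18 of all upstream flanks), and without library 23 it was 16.4 points (adjusted p = 0.0243). It passed without library 7 (0.0492), in thinned libraries (0.0478) and in the likelihood ratio test (0.0408), and did not pass without library 5 (0.108), without library 8 (0.074), with limma (0.145), at 5 kb (0.0577), at 20 kb (0.0666) or over dyads called in all 5 libraries (0.0655). The upstream flank of *Fcgr2b* gained 8.89 points (adjusted p = 0.156), the downstream flanks of *Fcgr3* and *Fcgr2b* 3.82 and 8.80 points (adjusted p = 0.607 and 0.358).

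**Figure D2:**
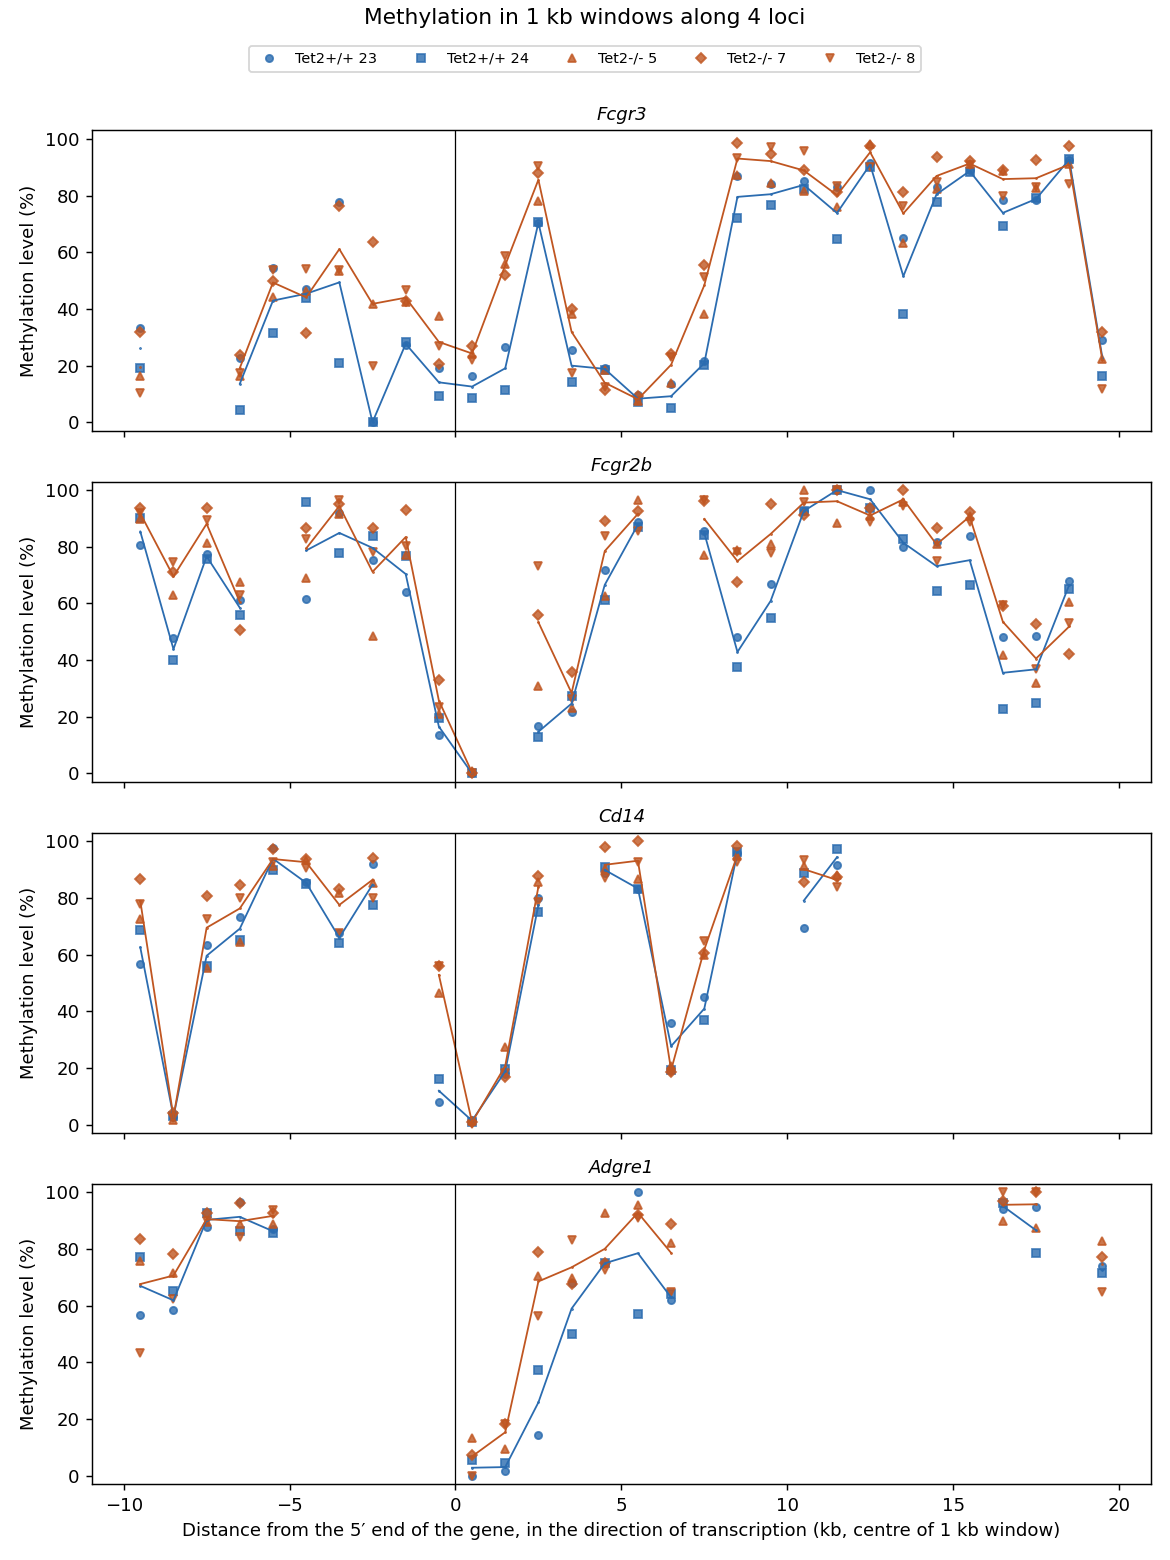
Methylation level in percent (y axis) in 1 kb windows with at least 10 calls in every library, by distance in kb from the 5′ end (x axis), for Fcgr3, Fcgr2b, Cd14 and Adgre1. Points are libraries and lines are group means, broken where a window had too few calls; the window after the start of Fcgr2b and Cd14 is near 0% in all libraries, and the orange Tet2-/- points lie above the blue ones in the window 2 to 3 kb into Fcgr2b and Adgre1 and in the 1 kb before Cd14.

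*Cd14* (chr18:36725067-36726798, minus strand) had the least methylated body of the 10 genes and a promoter that was almost free of methylation. The promoter (63 dyads, 291 to 530 calls) had 3.09% and 3.74% in *Tet2*+/+ and 7.55%, 7.03% and 4.93% in *Tet2*-/-. All *Tet2*-/- libraries were higher, by 3.09 points in the mean, which did not pass (unadjusted p = 0.0437, adjusted p = 0.262). The body had 6.91% and 7.39% against 8.65%, 5.49% and 5.30%, with overlap (-0.675 points, adjusted p = 0.804).

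Within the promoter of *Cd14*, most of the gain lay in its upstream part. In the 1 kb before the 5′ end (14 dyads), 5 of 63 calls (7.94%, 95% Wilson interval 3.44% to 17.3%) and 11 of 69 (15.9%, 9.14% to 26.3%) were methylated in *Tet2*+/+. In *Tet2*-/- 34 of 73 (46.6%, 35.6% to 57.9%), 28 of 50 (56.0%, 42.3% to 68.8%) and 14 of 25 (56.0%, 37.1% to 73.3%) were. The intervals, which cover counting error only, did not meet between the groups, and the difference was 40.9 points. The window was picked as the largest gain among windows without overlap, so this separation is no test. The upstream flank cut at 5 kb passed with a gain of 18.7 points (edgeR adjusted p = 0.0198), while at 10 kb it was 6.26 points (42.9% and 42.4% against 46.5%, 57.7% and 42.5%, adjusted p = 0.35). Library 7 carried most of the latter, which was 1.85 points without it (adjusted p = 0.834), and at 20 kb it was 4.10 points (adjusted p = 0.398). The largest loss in a window of *Cd14*, -8.05 points, lay 11 to 12 kb from its 5′ end.

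*Adgre1* (chr17:57358691-57483527, plus strand) has a promoter with 8 dyads and 28 to 55 calls. None of 32 calls was methylated in library 23 (which allows up to 9.38%) and 5.66% were in library 24, against 13.2%, 7.27% and 0% (none of 28, up to 10.7%) in libraries 5, 7 and 8. The groups overlapped at this depth (3.997 points, adjusted p = 0.622). The body of 124837 bp had 79.5% and 73.5% against 80.7%, 87.3% and 79.9%, higher in all *Tet2*-/- libraries by 6.18 points, which did not pass (unadjusted p = 0.0185, adjusted p = 0.0897). Of its 650 dyads, 169 had no call in any library.

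Among windows with at least 10 calls in every library, the largest gain of any of the 10 genes lay 2 to 3 kb into *Adgre1*, over an exon (chr17:57360691-57361690, 6 dyads). Levels there were 14.3% of 14 calls and 37.5% of 16 in *Tet2*+/+, and 70.6% of 34, 78.9% of 19 and 56.2% of 16 in *Tet2*-/-. The difference was 42.7 points, with wide intervals (4.01% to 39.9% in library 23 and 33.2% to 76.9% in library 8). Its largest loss, -15.9 points, lay 112 kb into the gene. The flanks of *Adgre1* differed by 1.29 points upstream and 3.99 points downstream (adjusted p = 0.799 and 0.510).

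*Itgam* (chr7:128062640-128118491, plus strand) was intermediate at its promoter and highly methylated in its body. The promoter (29 dyads) had 31.6% and 41.0% in *Tet2*+/+ and 40.5%, 39.7% and 39.8% in *Tet2*-/-. Only library 23 stood lower, and the groups overlapped (3.67 points, adjusted p = 0.835). The body had 77.0% and 76.9% against 80.3%, 85.1% and 79.0%, above in all *Tet2*-/- libraries by 4.53 points (adjusted p = 0.218).

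Farther along *Itgam*, the window 44 to 45 kb into the gene, over an exon, had 63.5% and 57.4% against 82.5%, 93.3% and 95.7%, its largest gain at 30.1 points. The downstream flank of *Itgam*, which the gene *Gm49368* overlaps, had 77.1% and 77.3% against 82.3%, 92.8% and 83.2%. Of its 148 dyads, 63 had no call in any library. The groups were apart by 8.88 points, which did not pass at 10 kb (adjusted p = 0.104) and did at 5 kb (14.4 points, edgeR adjusted p = 0.0235). At 20 kb the difference was 4.99 points (adjusted p = 0.403), and without library 7 the 10 kb had 5.51 points (adjusted p = 0.325). The upstream flank differed by 4.70 points (adjusted p = 0.543).

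The 4 Ly6 genes, which encode small proteins anchored to the membrane by a lipid, lie within one cluster on chromosome 15 and have few CpGs. Their promoters hold 6 to 14 dyads, while the median over all promoters was 62. Their loci (10 kb on each side included) had 0.752 to 1.11 times the calls per dyad of all autosomes in *Tet2*+/+ and 0.923 to 1.39 times in *Tet2*-/-. Coverage thus moved with the groups here, and its part in the values was not tested. At the other 6 loci it moved less, with group means of 1.01 and 1.06 at *Itgam* and 1.26 and 1.32 at *Cd14*. *Ly6c1* and *Ly6c2* are close relatives in sequence, and 4 of the 28 dyads in the body of the one and 4 of 22 in that of the other had no call.

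**Figure D3:**
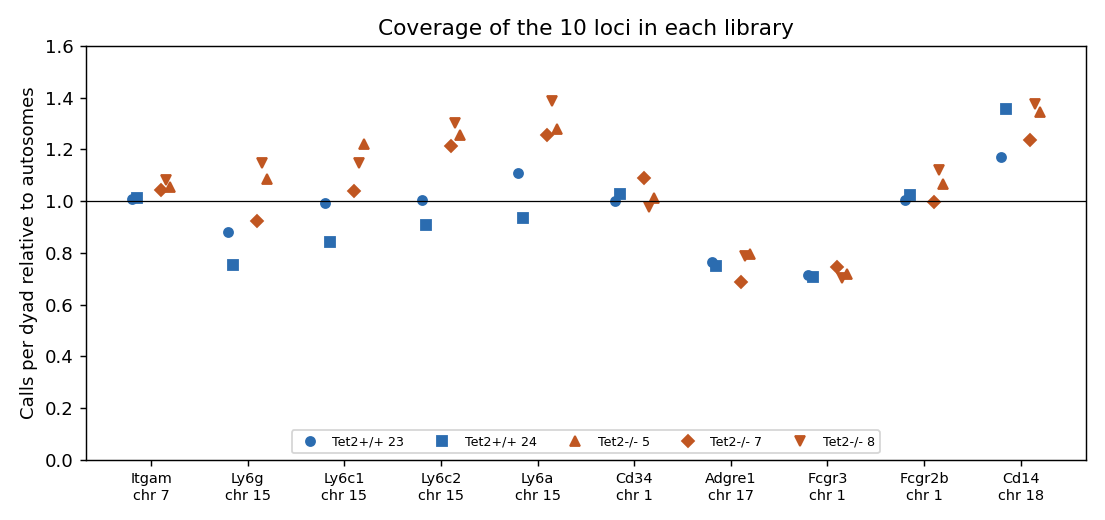
Calls per CpG dyad at each locus (gene and 10 kb on each side) relative to all autosomes of the same library (y axis), for each of the 10 genes with its chromosome (x axis); points are libraries. The Tet2-/- libraries lie above the Tet2+/+ libraries at all 4 Ly6 genes of chromosome 15, and Fcgr3 and Adgre1 lie near 0.7 to 0.8 in both groups.

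*Ly6c2* (chr15:75108158-75111970, minus strand) was split within the *Tet2*-/- group. Its promoter, with 6 dyads, had 19.05% of 21 calls and 21.7% of 23 in *Tet2*+/+, and 8.11% of 37, 43.6% of 39 and 44.0% of 25 in *Tet2*-/-. Library 5 was thus the lowest of all 5 (Wilson interval 2.80% to 21.3%) and libraries 7 and 8 the highest (29.3% to 59.0% and 26.7% to 62.9%). The difference of 11.5 points was within this spread (adjusted p = 0.705). The body, which holds the same calls in its first 1 kb, had 31.3% and 25.4% against 18.1%, 42.4% and 38.7% (4.72 points, adjusted p = 0.749). Without that first 1 kb it had 36.96% and 27.1% against 22.8%, 42.0% and 36.0%, with library 5 the lowest, library 7 the highest and library 8 just below library 23.

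*Ly6c1* (chr15:75044018-75048830, minus strand) was highly methylated at its promoter, which had 92.0% and 86.4% in *Tet2*+/+ and 92.2%, 92.5% and 84.4% in *Tet2*-/-, and the groups overlapped fully (0.480 points, adjusted p = 0.949). The body was at 71.9% and 72.7% against 66.5%, 82.8% and 66.99% (-0.215 points, adjusted p = 0.975). Within it, the window 2 to 3 kb from the 5′ end was low in both groups, with 33.3% and 15.4% against 17.4%, 12.5% and 7.14% on 6 to 23 calls a library. The promoters of *Ly6c1* and *Ly6c2* thus stood far apart in level, at 89.2% and 20.4% in *Tet2*+/+, although both proteins carry the LY6C epitope. That of *Ly6c1* holds 8 dyads, 3 of them without a call, with 25 and 22 calls in *Tet2*+/+. That of *Ly6c2* holds 6 dyads, 1 of them without a call, with 21 and 23 calls.

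*Ly6g* (chr15:75155240-75159126, plus strand) had the only promoter of the 10 with a lower mean in *Tet2*-/-. Levels were 87.2% and 93.0% in *Tet2*+/+ and 86.9%, 93.7% and 79.5% in *Tet2*-/-, and the drop of 3.38 points was within the spread (adjusted p = 0.810). It turned to a gain of 0.219 points without library 8. The body had 70.1% and 85.5% against 86.0%, 91.5% and 69.4%, a difference of 4.49 points with libraries 23 and 8 low (adjusted p = 0.528).

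Among windows with at least 10 calls in every library, the largest loss of any of the 10 genes lay just past *Ly6g*, 4 to 5 kb from its 5′ end (chr15:75159240-75160239, 4 dyads, outside any annotated gene). There, 90.0% and 90.9% of 20 and 22 calls were methylated in *Tet2*+/+ and 78.8%, 73.5% and 50% of 30 to 52 in *Tet2*-/-. All *Tet2*-/- libraries were lower, at a difference of -23.02 points. The largest gain of *Ly6g*, 24.5 points, lay 11 to 12 kb from its 5′ end.

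*Ly6a* (chr15:74994877-74998031, minus strand) had the largest body difference of the 10 genes, which still did not pass. With 10 dyads and 51 to 93 calls, its body had 53.7% and 58.8% in *Tet2*+/+ and 71.0%, 74.1% and 76.9% in *Tet2*-/-. The groups were well apart, the *Tet2*+/+ mean being 56.3% ± 3.62 (SD, n = 2). The *Tet2*-/- mean, 74.0% ± 2.98 (SD, n = 3), was 17.7 points higher (unadjusted p = 0.0496, adjusted p = 0.171). The promoter was at 60% and 61.3% against 66.7%, 73.5% and 63.9%, also without overlap (7.36 points, adjusted p = 0.710).

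Around the principal start of *Ly6a*, 397 bp downstream, levels were 70.8% and 64.5% in *Tet2*+/+ and 89.5%, 86.96% and 100% (24 of 24 calls) in *Tet2*-/-. That difference of 24.5 points rested on 8 dyads and 24 to 46 calls and did not pass (unadjusted p = 0.0150, adjusted p = 0.176). Downstream the sign turned: the 10 kb past *Ly6a* had 49.6% and 36.5% against 38.8%, 35.0% and 36.3%, where library 23 alone was high (-6.34 points, adjusted p = 0.436). Without library 23 that difference was 0.227 points.

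The flanks of the Ly6 genes differed little otherwise. Upstream differences were -0.373 points (*Ly6g*), 1.10 points (*Ly6c2*), 1.34 points (*Ly6c1*) and 3.80 points (*Ly6a*), and downstream differences 3.26 points (*Ly6c2*), 4.81 points (*Ly6c1*) and 6.27 points (*Ly6g*), all with an adjusted p of 0.321 or above. Among windows, the largest gains were 25.9 points 1 to 2 kb into *Ly6a*, 20.8 points past *Ly6c2* and 19.5 points past *Ly6c1*.

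*Cd34* (chr1:194938819-194961279, plus strand) kept a lowly methylated promoter. With 40 dyads and 115 to 345 calls, levels were 13.2% and 5.23% in *Tet2*+/+ and 9.93%, 9.86% and 20% in *Tet2*-/-, and the groups overlapped (4.06 points, adjusted p = 0.665). Within 500 bp of the start the levels were at most 2.94% in every library. The body was at 43.5% and 41.3% against 39.7%, 40.7% and 49.3%, a difference of 0.839 points (adjusted p = 0.951).

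Past the gene, the 10 kb downstream of *Cd34* had 79.2% and 67.1% in *Tet2*+/+ and 80.6%, 92.3% and 80.9% in *Tet2*-/-. All *Tet2*-/- libraries were above, by 11.5 points, the largest downstream difference of the 10 genes, which did not pass (unadjusted p = 0.0198, adjusted p = 0.0857). Its largest loss in a window, -15.3 points, lay 6 to 7 kb into the gene on 11 to 18 calls a library. The window with its largest gain, 31 to 32 kb from the 5′ end and within the gene *Gm16897*, had 62.9% and 32% against 84.2%, 93.9% and 78.6%. Upstream the difference was 2.98 points (adjusted p = 0.783).

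**Figure D4:**
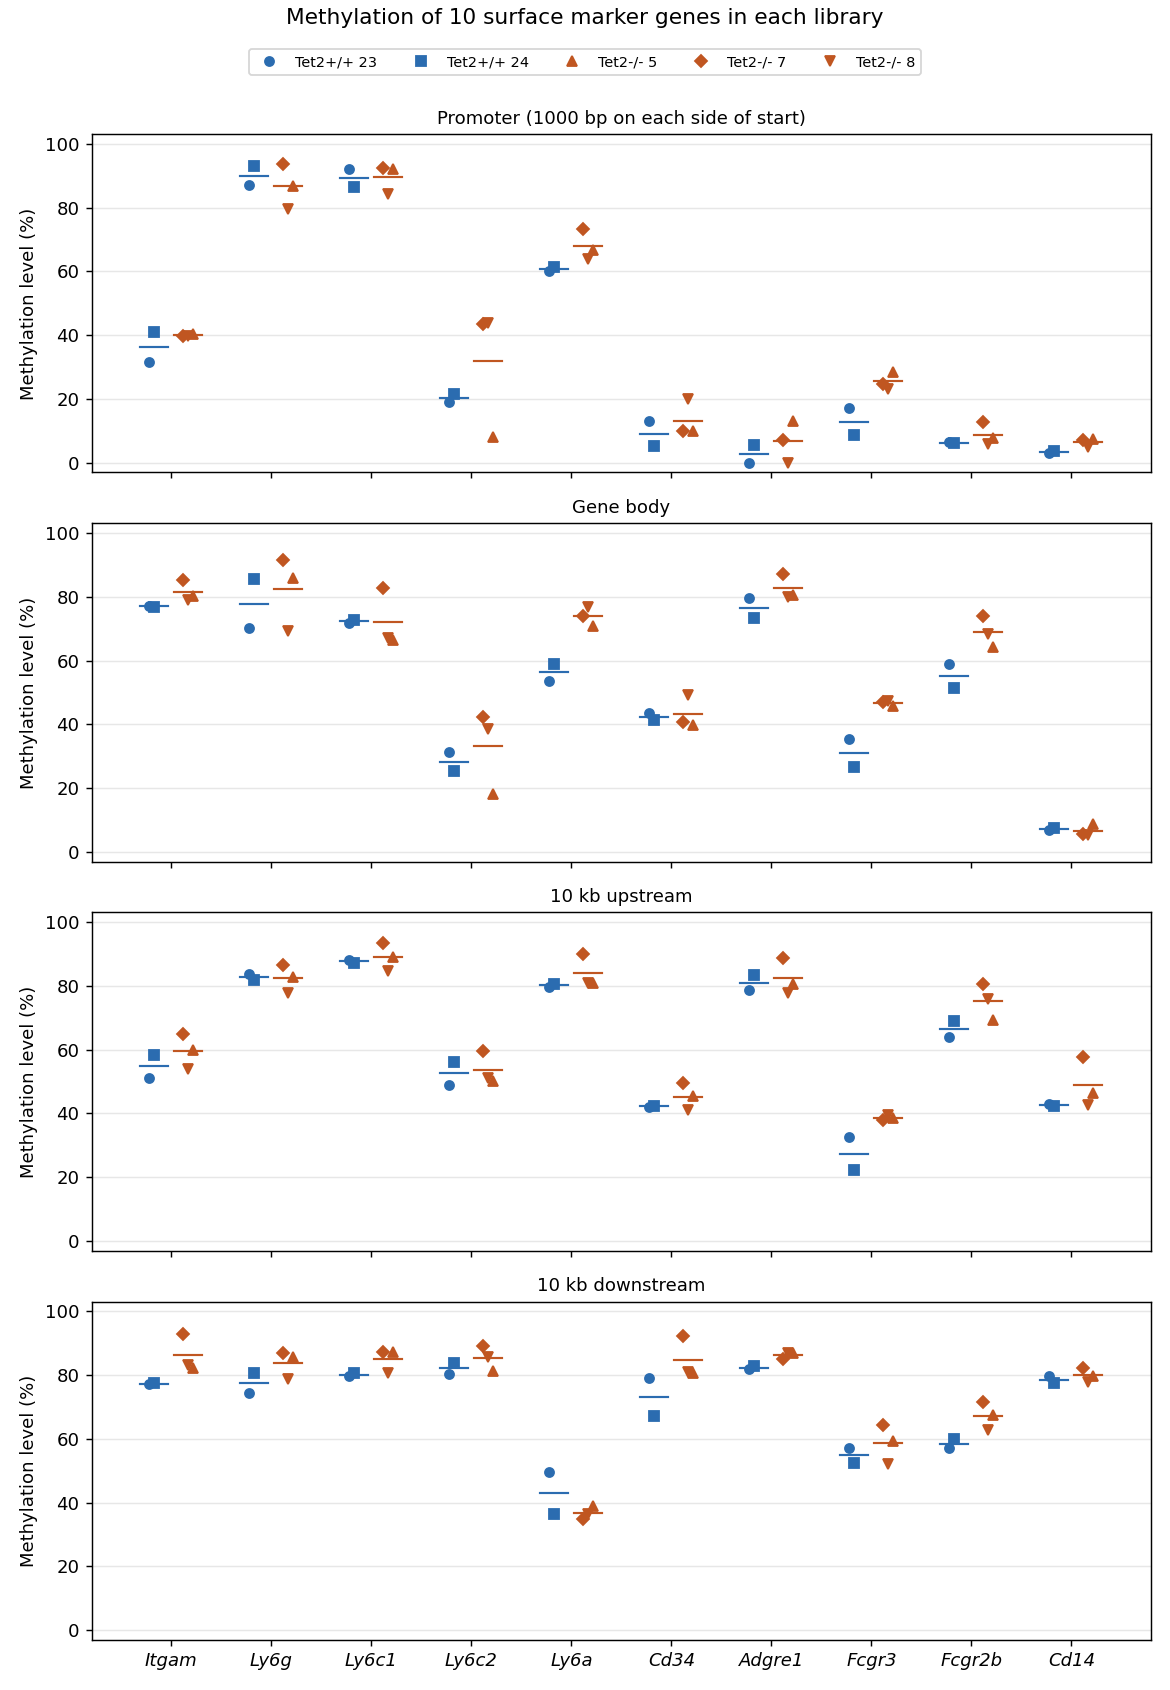
Methylation level in percent (y axis) of the 10 genes (x axis) in promoters, gene bodies and 10 kb flanks. Points are libraries, blue for Tet2+/+ and orange for Tet2-/-, and bars are group means; promoters range from near 0% (Cd14, Adgre1) to about 90% (Ly6g, Ly6c1) in both groups, and the groups are clearly apart in the bodies of Fcgr3, Fcgr2b and Ly6a.

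The order of promoter levels, which runs from 2.83% (*Adgre1*) and 3.42% (*Cd14*) over 6.38% (*Fcgr2b*), 9.20% (*Cd34*), 12.9% (*Fcgr3*), 20.4% (*Ly6c2*), 36.3% (*Itgam*) and 60.6% (*Ly6a*) to 89.2% (*Ly6c1*) and 90.1% (*Ly6g*) in *Tet2*+/+, was nearly kept in *Tet2*-/-. There it ran from 6.504% (*Cd14*), 6.83% (*Adgre1*), 8.80% (*Fcgr2b*), 13.3% (*Cd34*), 25.5% (*Fcgr3*), 31.9% (*Ly6c2*), 40.0% (*Itgam*) and 68.0% (*Ly6a*) to 86.7% (*Ly6g*) and 89.7% (*Ly6c1*). Neighbours at each end swapped places within their spread. The mean over the 10 promoters was 33.0% and 33.3% in *Tet2*+/+ and 36.1%, 40.5% and 36.6% in *Tet2*-/-, and over the 10 bodies 52.8% and 51.9% against 56.1%, 63.0% and 58.1%. Library 7, which has the highest level over the genome, was highest in both.

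By distance from the 5′ end, the differences of the marker genes scattered around those of all genes. In the 1 kb before it, 7 of the 10 genes had at least 10 calls in every library, with a median difference of 9.44 points and 4 genes without overlap (*Itgam*, *Fcgr3*, *Fcgr2b* and *Cd14*), beside a median of 2.99 points and 29.2% without overlap over 18818 genes. In the first 1 kb after it, the median was 2.78 points over all 10 genes and 1 was without overlap, beside 1.40 points and 28.5%. From 2 to 3 kb after the 5′ end, which is past the end of *Cd14*, 5 genes could be measured. Their median was 20.7 points and 4 were without overlap (*Ly6a*, *Adgre1*, *Fcgr3* and *Fcgr2b*), beside 6.47 points and 35.9% over 17244 genes. Other windows had medians below those of all genes. From 6 to 7 kb after the 5′ end, which is past the end of *Cd14* and the 4 Ly6 genes, the median of 7 genes was -2.57 points beside 5.71 points. From 4 to 5 kb before the 5′ end, that of 7 genes was 0.728 points beside 6.13 points. These windows were picked from 20 after their values were seen, and no test was made.

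**Figure D5:**
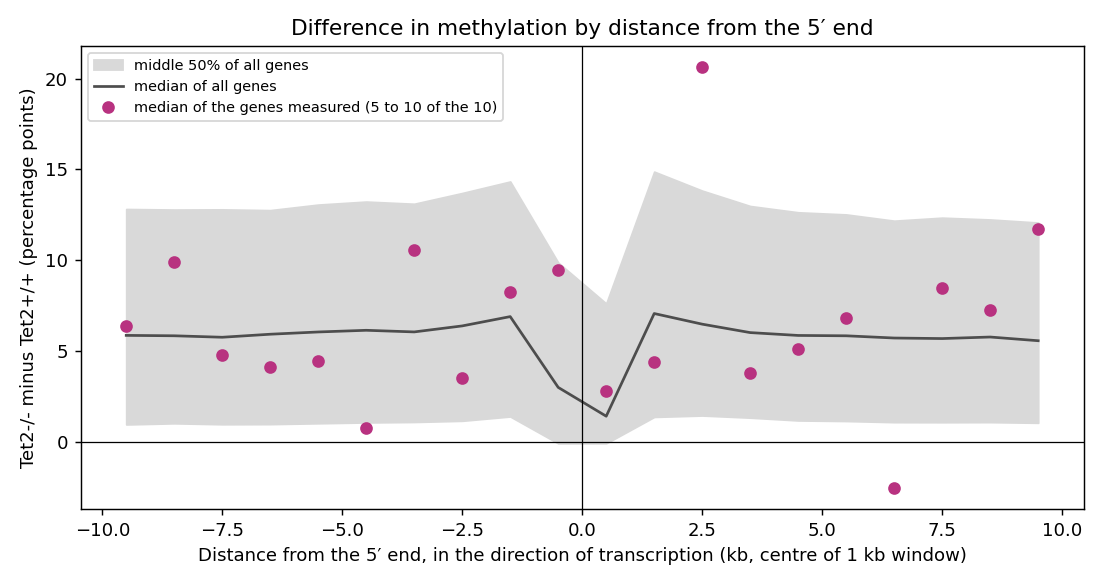
Difference of group means in percentage points (y axis) in 1 kb windows by distance in kb from the 5′ end (x axis), as the median of the marker genes with at least 10 calls in every library (points) and the median and middle 50% of all genes (line and band). The point 2 to 3 kb after the 5′ end, at 20.7 points over 5 genes, lies above the band. Those 6 to 7 kb after and 4 to 5 kb before the 5′ end lie below the band, and the others lie within it. The band is the spread of single genes and does not measure how far a median of few genes varies.

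Over all windows of the 10 loci, 281 of 442 had enough calls. All *Tet2*-/- libraries were above both *Tet2*+/+ libraries in 79 of them (28.1%), beside 28.7% of 1643430 tiles of 1 kb over the genome. They were below in 7 (beside 2.60% of tiles). The share above was highest at *Fcgr3* (43.8% of 32 windows) and *Fcgr2b* (34.4% of 32) and lowest at *Ly6c2* (6.25% of 16) and *Ly6a* (20% of 20). Windows of 1 locus share reads and neighbours, and these shares are descriptions.

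Other surface markers of the same families and cells were counted from fixed lists, in promoters and bodies, to be read against the 1.07% of all promoters and 15.5% of all bodies that passed. Of 12 other Ly6 and related genes of chromosome 15, the promoter of *Ly6k* rose from 13.8% to 56.8% (edgeR adjusted p = 0.0164), with levels of 19.4% and 8.21% against 69.8%, 58.4% and 42.2%. The bodies of *Ly6k*, *Ly6d* and *Lynx1* rose by 23.96, 20.9 and 14.2 points (adjusted p = 0.00203, 0.0262 and 0.0210). These genes share the coverage of chromosome 15 described above. Of 8 other Fc receptors, no promoter passed and the bodies of *Fcer2a*, the low-affinity IgE receptor, and *Fcgr1*, the high-affinity IgG receptor of monocytes, rose by 19.3 and 13.9 points (adjusted p = 0.000876 and 0.0193). Of 7 other integrin genes and partners, the body of *Itgal* rose by 10.0 points (adjusted p = 0.00166).

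Of 12 markers of progenitors other than *Cd34* and *Ly6a*, the promoter of *Esam* rose from 10.3% to 37.7% (adjusted p = 0.0451). Its libraries had 12.3% and 8.37% against 35.4%, 26.5% and 51.3%. The bodies of 7 rose, where 15.5% of all bodies passed, among them by 28.2 points in *Procr* (adjusted p = 0.000269) and 18.8 points in *Slamf1* (6.89e-06). The median body difference of this list was 11.7 points, beside 0.839 points for *Cd34* and 17.7 points for *Ly6a*.

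Of 12 other monocyte and macrophage markers no promoter passed and 3 bodies did, where 15.5% of all bodies passed: those of *Siglec1*, *Cd86* and *Mrc1* rose by 20.8, 15.6 and 7.62 points (adjusted p = 2.36e-06, 0.000704 and 0.0429). Of 9 other neutrophil markers, 7 promoters could be tested and none passed, and the body of *Cxcr4* rose by 10.4 points (adjusted p = 0.00184). No gene of these lists fell past the threshold, and few genes of any kind did: 3 of 19455 promoters and 14 of 20715 bodies. The absence is thus not particular to these lists.

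Genes of cells that the gate removes were counted against the same shares, 1.07% of all promoters and 15.5% of all bodies. Median promoter levels of lists are given from the lowest to the highest library of a group. For 5 T cell genes they were 72.2% to 73.6% in *Tet2*+/+ and 84.1% to 88.6% in *Tet2*-/-. No promoter passed, while 3 of 5 bodies did: those of *Cd3g*, *Cd3e* and *Lck* rose by 23.998, 19.2 and 9.83 points (edgeR adjusted p = 6.78e-05, 0.000662 and 0.0341). For 5 B cell genes the median promoter levels were 50.5% to 51.6% against 56.4% to 72.2%. No promoter passed and 2 of 5 bodies did, among them that of *Ms4a1*, which rose by 16.7 points (adjusted p = 0.0029). For 6 erythroid genes, 5 promoters could be tested, with medians of 25.3% to 27.3% against 29.0% to 31.9%. Of these 1 passed, that of *Hba-a1*, which rose from 41.5% to 86.6% (adjusted p = 0.0409), a gene with a near-identical copy beside it. Of 4 erythroid bodies tested 2 passed, and that of *Slc4a1* rose by 14.6 points (adjusted p = 0.00289). No median of these lists was at 0, and the part of such cells in the values of the marker genes was not tested.

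Among 7 granule genes of neutrophils no promoter and 2 bodies passed (1.07% and 15.5% over all genes). Their median promoter levels were 24.4% to 40.0% in *Tet2*+/+ and 28.9% to 46.9% in *Tet2*-/-. The body of *Mpo*, the myeloperoxidase gene of myeloid precursors, had 14.96% and 9.74% against 14.7%, 48.5% and 40.9% (22.3 points, adjusted p = 4.15e-06). Library 5 was within the *Tet2*+/+ range there. The body of *Ltf* rose by 8.16 points (adjusted p = 0.0235). Its libraries had 74.5% and 75.2% against 82.5%, 85.7% and 80.7%, so that library 5 lay above both *Tet2*+/+ libraries. Of 4 mast cell genes no promoter and no body passed.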

How the data were processed

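DNA of sorted leukemic blasts of 5 mice was bisulfite converted and sequenced after library preparation by random priming, 2 *Tet2*+/+ and 3 *Tet2*-/-, grouped by the genotype in their titles. Per the labels and the study's methods, the authors trimmed reads with Trim Galore 0.4.3, checked them with FastQC 0.11.7, aligned them to GRCm38 (mm10) with Bismark 0.19.1 and Bowtie2 in non-directional mode, removed duplicates by position and extracted calls. Unconverted cytosines count as methylated, and reads in repeats are lost. What they deposited is, for each CpG cytosine, the raw counts of its methylated and of its unmethylated calls.

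Both strands were added for 21353092 CpG dyads of the autosomes and the X chromosome. Mitochondrial DNA was at 0.807% to 0.989%, which bounds incomplete conversion. Levels are methylated over all calls of a region, as in the study. Regions were the promoter (from 1000 bp before to 1000 bp after the 5′ end in GENCODE vM21), the gene body and 10 kb on each side, with at least 20 calls in every library. Region counts were tested with edgeR 4.0.16 (R 4.3.3), with a coefficient per library, trended dispersion and glmQLFTest, adjusted by Benjamini-Hochberg over all genes within each kind of region. Limma 3.58.1 used log2((methylated + 2)/(unmethylated + 2)). The test was tested on simulated data with 200 changed regions of each kind. These had the real depths and mean levels, no shift over the genome, and a spread between libraries that was set, not estimated. The simulation therefore does not measure what could be detected in the real libraries. At a change of 25 points the test recovered 0 of 200 promoters, 146 bodies, 145 upstream flanks and 112 downstream flanks, with 0, 16, 11 and 8 false calls. At 45 points it recovered 134 of 200 promoters, with 1 false call among 19455. Python 3.11.15, numpy 2.4.6, scipy 1.17.1 and matplotlib 3.10.9 were used for levels, Wilson intervals (95%) and plots. Promoter sequences are those of RefSeq (GRCm38.p6), found for 7 of the 10 genes and not for *Ly6a*, *Adgre1* and *Cd14*.

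The 10 genes and the lists were chosen with earlier results of these data known. All 10 genes are named in each kind of region. Of each list, up to 3 called genes with the largest difference are named, promoters first, and of each locus the windows with the largest gain and loss without overlap. Two-sided p-values are given. Alternatives were other call minimums, tests, region lengths and start sites, thinning, dyads called in all 5 libraries, and leaving out each library. Some genes of these lists are not reported by name here. RNA was not analysed here.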

Additional observations from a re-analysis of the deposited data

How the results depend on the processing

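The median differences over the 10 genes stayed positive in each setting where they were recomputed. They were not recomputed for the likelihood ratio test or for limma, with or without subtraction of library medians. Of 48 recomputed medians, 47 moved by less than 1 SD between libraries, and the exception was promoters of 500 bp on each side, where 6 genes could be tested and the median was 6.35 points. Leaving out 1 library gave medians of 3.03 to 5.12 points (promoters), 2.41 to 6.66 (bodies), 0.822 to 5.24 (upstream) and 3.92 to 7.01 (downstream).

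The count of bodies past the threshold, 2, fell to 0 with limma (adjusted p = 0.0892 for *Fcgr3* and 0.119 for *Fcgr2b*), to 0 with limma after subtraction of library medians (0.249 and 0.30) and to 1 without the first 1000 bp of bodies. Leaving out 1 library gave 0 to 2. Limma called 117 of all bodies and 1 after subtraction of medians, beside 3221 with edgeR, and 88 were called without library 24. The count of promoters rose from 0 to 1 with 2000 bp on each side, where 532 of 20672 passed over all genes. The count of upstream flanks rose from 0 to 1 with the likelihood ratio test, with thinning and with a 5 kb flank. Over all genes these settings called 3324 of 21311, 2456 of 21270 and 1335 of 20959 upstream flanks. Without 1 *Tet2*-/- library the count was 0 to 1, beside 1756 to 3519 over all genes. The count of downstream flanks rose from 0 to 1 with a 5 kb flank, where 2439 of 20929 passed over all genes. These rises of 1 say nothing particular about the 10 genes. The promoter difference of *Fcgr3* turned to -1.87 points at the principal start, and the upstream flank of *Cd14* lay at -0.0593 (log2 odds) in limma after subtraction of library medians. Differences that did not pass also turned sign in at least 1 setting for *Ly6g*, *Ly6c1*, *Ly6c2*, *Ly6a*, *Itgam*, *Cd34*, *Adgre1* and *Cd14*. The cause of these changes was not tested.

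Leaving out the 4 Ly6 genes, a choice made after seeing the data, changed no count and gave medians of 3.83, 5.35, 5.48 and 6.40 points. Over all promoters, 1070 were called by the likelihood ratio test and 77 by limma, beside 209. No paired analysis was possible because the groups share no replicate number. Depth is low at the sparse promoters, where that of *Ly6c2* with 6 dyads has 21 to 39 calls a library. In simulated promoters a change of 25 points was recovered in 0 of 200 by edgeR and 5 of 200 by limma. The simulated spread between libraries was set and not estimated, so this does not measure what could be detected here.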
